A study of Homo sapiens with 2 samples.

Results

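SR proteins and their TRA2 relatives are splicing activators, and the 10 genes SRSF1, SRSF2, SRSF3, SRSF4, SRSF5, SRSF6, SRSF7, SRSF10, TRA2A and TRA2B were followed here in breast cancer cells depleted of another splicing factor, HNRNPF. They were picked by symbol, a rule that used no measured value, but earlier results of these data were known when they were chosen. The symbols matched 11 of the 20323 genes in the table, because SRSF1 named 2 rows. RNA with poly(A) tails was sequenced from MDA-MB-231 cells, an established line from a triple-negative breast cancer, with 1 library for a negative-control siRNA (the control library) and 1 for an siRNA targeting HNRNPF, which encodes heterogeneous nuclear ribonucleoprotein F. The sources used here give neither the time after transfection nor the siRNA dose, and 1 siRNA in 1 line cannot separate loss of HNRNPF from other effects of that siRNA. With 1 library per group there is no replicate check and no test: higher and lower describe this pair of libraries, and every interval covers counting error only. In bulk RNA, fewer cells of a type and less RNA per cell cannot be told apart.

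SR proteins carry RNA recognition motifs and a tail rich in arginine and serine, the RS domain. They bind short sequences in exons, called splicing enhancers, and recruit the spliceosome to the neighbouring splice sites. SRSF1 and the TRA2 proteins bind purine-rich elements such as GAA repeats. Kinases phosphorylate the RS domain, which sends the proteins into the nucleus and to nuclear speckles. Many SR genes limit their own expression by including a poison exon, a cassette exon with a premature stop codon that sends the transcript to nonsense-mediated decay (NMD). HNRNPF itself binds runs of G in RNA and can activate or silence exons.

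GENCODE release 29 listed at least 1 NMD transcript for each of the 10 genes, against 43.8% of all expressed genes and 48.7% of expressed genes at similar levels. It listed retained-intron transcripts for 9 of the 10, SRSF6 being the exception, against 69% at similar levels and 57.5% of all expressed genes. The numbers of NMD transcripts ran from 1, in SRSF5, SRSF6, TRA2A and TRA2B, to 6 of 12 transcripts in SRSF7. The coding stretches below lie within annotated NMD exons that overlap no exon of a coding transcript. Each stretch ends at the premature stop, which is in capitals. They are shown because the gene-level values that follow sum these transcripts with the productive ones. The exons lie on GRCh38 at chr6:36599821-36600276 (SRSF3, plus strand), chr2:38748898-38749346 (SRSF7, minus strand), chr20:43459153-43459420 (SRSF6, plus strand) and chr1:29165890-29166064 (SRSF4, minus strand).
SRSF3: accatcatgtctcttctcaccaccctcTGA
SRSF7: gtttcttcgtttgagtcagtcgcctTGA
SRSF6: gccatgacgacagcagccttttgccatTAG
SRSF4: ggagaggttcggttcttacaaggaaaaTGA
The exon of SRSF3 is 456 bases long and its stop codon ends 34 bases in. That of SRSF7 is 449 bases long with the stop ending 28 bases in, that of SRSF6 268 bases with the stop ending 152 bases in, and that of SRSF4 175 bases with the stop ending 56 bases in.

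The control library held 20654617 rounded counts over 14645 genes and the HNRNPF siRNA library 20134566 over 14755. The targeted gene, HNRNPF, was 2.58-fold lower where the labels place the knockdown, with counts of 6373 and 2451 (log2 ratio -1.37). Of the markers of the line, VIM (66622 and 63656 counts), KRT8 and KRT18 were expressed. Of the 3 receptor genes that define a triple-negative cancer, PGR was at 0 and ESR1 at 3 and 8 counts, but ERBB2 had 1160 and 1236. Of the markers of other cell types, CD3E and VWF were at 0 in both libraries, PTPRC had 0 and 2 counts, and PDGFRB, with 218 and 224, was the most abundant. Another endothelial marker and another fibroblast marker also reached the level called expressed here. An expressed gene is one with at least 1 CPM (counts scaled to a library of 1e6) and 20 counts where it was higher, which 12218 genes and all 11 rows reached.

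All 10 genes were slightly lower in the HNRNPF siRNA library, by 1.49% (SRSF1) to 14.2% (TRA2A). Their median log2 ratio was -0.11, against 0.00 for all expressed genes and -0.05 for the 2366 expressed genes whose mean lay between those of the lowest and the highest member, 99.9 and 578 CPM. A log2 ratio below 0 was found in 49.9% of all expressed genes and in 62.5% of those at these levels, so abundant genes in general leaned the same way. None of the 10 was 1.2-fold lower or higher, against 10% lower and 3.76% higher at these levels, and 12.6% and 14.8% of all expressed genes. At 1.1-fold, 3 were lower (SRSF7, SRSF10 and TRA2A), close to the 28.8% of genes at these levels and the 26.4% of all expressed genes, and none was higher, against 12.1% and 26.9%. The counting interval lay below 0 for 8 of the 10, all but SRSF1 and SRSF4, against 43.8% of genes at these levels and 24.5% of all.

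**Figure D1:**
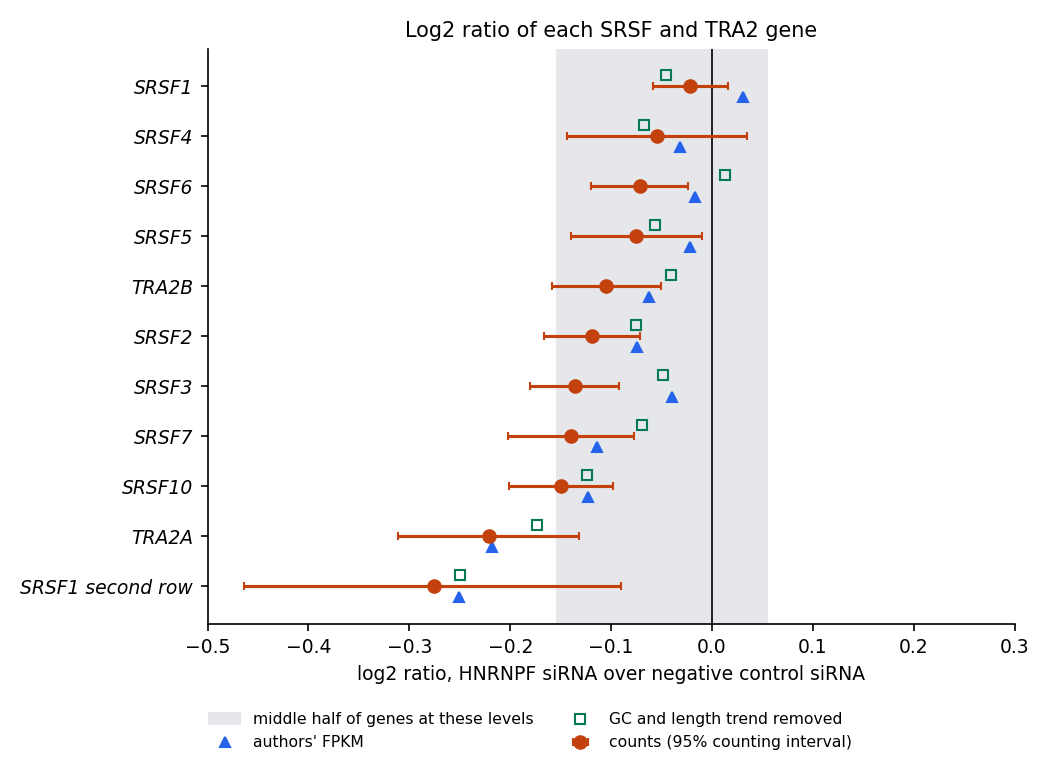
Log2 ratio of each gene, HNRNPF siRNA over negative control siRNA, from counts (circles, with exact 95% counting intervals), from the authors' FPKM (triangles) and after removal of the GC and length trend (squares). The shaded band spans the 25th to the 75th percentile of expressed genes at these levels, and the circles run from -0.02 for SRSF1 to -0.22 for TRA2A, with the second SRSF1 row at -0.28.

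SRSF1, the founding SR protein and one with oncogenic activity in breast cells, was the most abundant of the group and differed least. Its estimated counts were 11928 (control) and 11661 (HNRNPF siRNA), a log2 ratio of -0.02 with a 95% interval of -0.06 to 0.02. By the authors' FPKM it stood at 234.9 and 239.9, slightly higher (log2 ratio 0.03), so its direction depended on the scale. The second row called SRSF1 in the table (ENSG00000266086) is AC015813.2 in GENCODE, a single NMD transcript of 2270 bases that shares 1890 exonic bases with SRSF1, 83.3% of its own. Its counts were 526 and 431, 1.21-fold lower (log2 ratio -0.28, 95% interval -0.46 to -0.09). Both rows had fractional counts, and reads may have been divided between them in the authors' counting. Summed, they held 12454 and 12092, and their joint log2 ratio was -0.03 (95% interval -0.07 to 0.00).

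SRSF2, a speckle protein also linked to transcription elongation, gave 7556 counts (control) and 6904 (HNRNPF siRNA). It was 7.92% lower (log2 ratio -0.12, 95% interval -0.17 to -0.07). Its counts were not whole either, and 36.7% of its exonic bases overlap MFSD11 on the opposite strand. The sources used here do not say whether strand was kept when reads were counted, and MFSD11 itself had only 169 and 139 counts.

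SRSF3, the smallest SR protein, and SRSF7, which adds a zinc knuckle, both serve as adaptors for mRNA export, and they were lower by nearly equal amounts. SRSF3 gave 8673 counts (control) and 7831 (HNRNPF siRNA), or -0.14 on the log2 scale (95% interval -0.18 to -0.09). SRSF7 gave 4331 and 3901, also -0.14 (95% interval -0.20 to -0.08). The difference between their log2 ratios, in which library size cancels, was 0.00 (exact 95% interval -0.07 to 0.08). By FPKM they came apart, at -0.04 for SRSF3 and -0.11 for SRSF7.

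SRSF4, SRSF5 and SRSF6 each carry a pair of RNA recognition motifs. On the scale of counts they lay nearest to 0 after SRSF1. That order did not hold by FPKM or with the GC and length trend removed. SRSF4 gave 2083 counts (control) and 1990 (HNRNPF siRNA) (log2 ratio -0.05, 95% interval -0.14 to 0.03). SRSF5 had 3919 and 3692 counts (log2 ratio -0.07, 95% interval -0.14 to -0.01). SRSF6 had 7260 and 6855 counts (log2 ratio -0.07, 95% interval -0.12 to -0.02). The largest difference among these 3 was 0.02, between SRSF4 and SRSF5 (exact 95% interval -0.09 to 0.13).

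SRSF10, an SR protein that turns into a splicing repressor when it loses its phosphates after heat shock, was 9.84% lower. Its 6436 counts in the control compared with 5758 after HNRNPF siRNA, for a log2 ratio of -0.15 (95% interval -0.20 to -0.10).

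TRA2A and TRA2B, the human homologs of the fly sex-determination factor transformer 2, bind GAA-rich enhancers. TRA2A differed most of the 10 genes, at 2216 counts (control) and 1886 (HNRNPF siRNA) (log2 ratio -0.22, 95% interval -0.31 to -0.13). TRA2B had 5787 and 5340 counts (log2 ratio -0.10, 95% interval -0.16 to -0.05). The log2 ratio of TRA2A minus that of TRA2B was -0.12, with an exact 95% interval of -0.22 to -0.01. In FPKM, TRA2A stood at 0.369 of TRA2B under the control siRNA and 0.332 under HNRNPF siRNA.

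In the authors' deposited table, 5 of the 10 genes had a false discovery rate under 0.05, all with a fold change below 0, against 31.4% of genes at these levels and 16.3% of all expressed genes in that direction. In the authors' deposited table the rate was 0.000598 for TRA2A, 0.00129 for SRSF10, 0.00177 for SRSF3, 0.0124 for SRSF7 and 0.0144 for SRSF2. In the authors' deposited table it was 0.0683 for TRA2B and between 0.313 and 1.0 for SRSF1, SRSF4, SRSF5 and SRSF6. The sources used here do not name the test behind these rates, and with 1 library per group they contain no spread between cultures.

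Per length, the order of the 10 genes was nearly the same in both libraries. In the control the authors' FPKM was 234.9 for SRSF1, 216 for SRSF3, 179 for SRSF2, 164 for TRA2B and 148 for SRSF5. It was 129.9 for SRSF7, 127 for SRSF6 and 122 for SRSF10, then 60.6 for TRA2A and 46.1 for SRSF4. The FPKM intervals of SRSF7 and SRSF6 overlapped, as did those of SRSF6 and SRSF10, while all other neighbours in the control were separated beyond counting error. In the HNRNPF siRNA library FPKM ran from 239.9 for SRSF1 to 45.1 for SRSF4, with SRSF6 (125) ahead of SRSF7 (120.1), whose intervals again overlapped. The other 8 genes kept their rank. Together the 10 genes took 0.291% of the control counts (exact 95% interval 0.289 to 0.294) and 0.277% of the HNRNPF siRNA counts (0.275 to 0.280). Within their summed FPKM, the share of SRSF1 was 16.4% and 17.4%, and that of TRA2A was 4.24% and 3.78%.

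**Figure D2:**
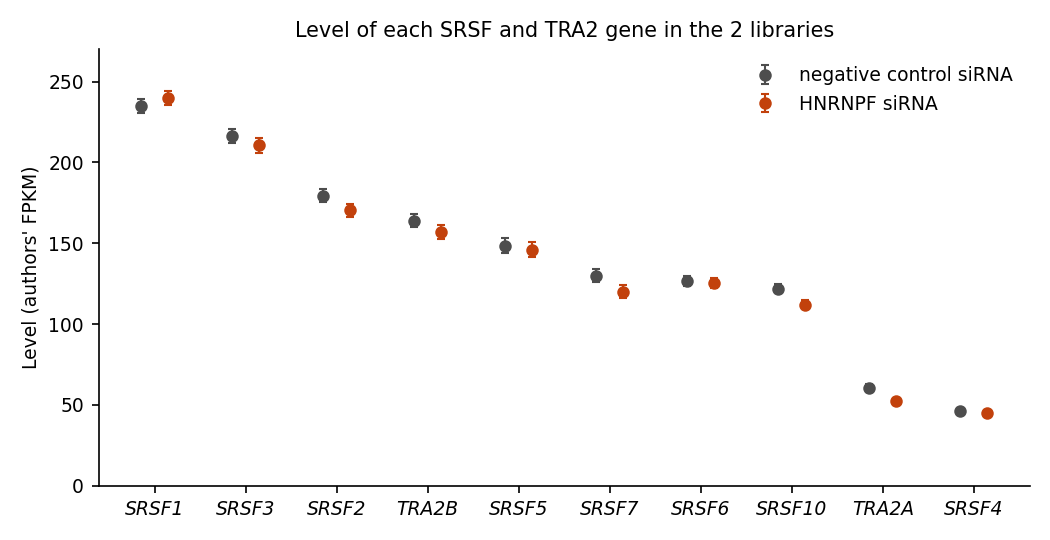
The authors' FPKM (level per transcript length and depth) of each of the 10 genes in the negative control and the HNRNPF siRNA library, with exact 95% Poisson intervals of the count behind each point. SRSF1 is highest in both libraries and SRSF4 lowest, and the libraries lie close together for every gene.

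The deposited values also carry an indirect reading of transcript length. Dividing a gene's count by its FPKM and the library's total gives the effective length that the authors' quantification used, which is an average over the gene's transcripts weighted by their estimated abundance. It does not say which transcripts differ, and no interval can be given for it. It was shorter in the HNRNPF siRNA library for 8 of the 10 genes, against 51.6% of genes at these levels and 51.4% of all with an FPKM of at least 5, but by small amounts (median log2 ratio -0.02, against 0.00). SRSF3 differed most, with an implied length of 1941 bases (control) and 1848 (HNRNPF siRNA), 4.78% shorter. It was the only one of the 10 at least 1.05-fold shorter, a size that 9.26% of genes at these levels and 12.2% of all reached. The annotated coding transcripts of SRSF3 run from 869 to 4222 bases, and the transcript with the 456-base exon shown above has 1095. TRA2A was longer by 1.53% (1770 and 1797 bases) and SRSF4 by 0.200%. SRSF7 and SRSF10, both counted among the 8, were shorter by under 0.1%. The implied length of SRSF7 rounded to 1614 bases in both libraries, so its direction is uncertain. The remaining 5 genes were shorter by 1.15% (TRA2B) to 2.0% (SRSF6).

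**Figure D3:**
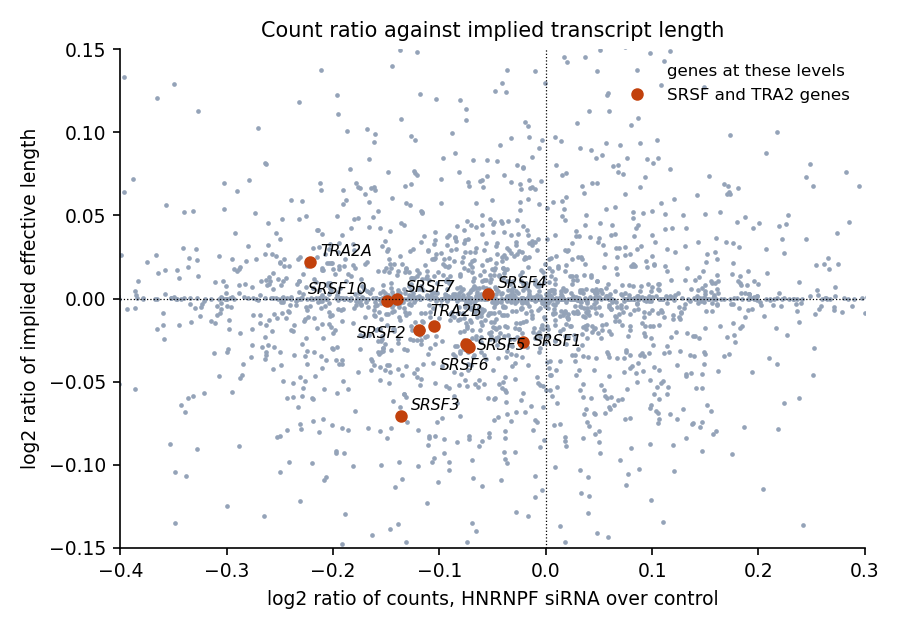
For each gene, the log2 ratio of counts (horizontal) and of implied effective length (vertical), HNRNPF siRNA over control, with the 10 genes named and expressed genes at these levels in grey (2120 of 2366 lie inside the axes). SRSF3 lies lowest on the vertical axis at -0.07 and TRA2A highest at 0.02, both inside the grey cloud.

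Over all expressed genes, the ratios moved with base composition. Transcripts rich in GC tended to have higher ratios (Spearman's rho 0.27 over expressed genes, which all share the same pair of libraries), and the 10 genes had a median GC content of 43.3%, against 48.5% for all expressed genes and 45.6% at these levels. SRSF3, at 39.3%, and SRSF6, at 39.6%, had the lowest GC content, and SRSF4, at 52.2%, the highest. After a trend on GC and transcript length was subtracted, the median of the 10 was -0.06, against 0.00 for all expressed genes and -0.03 at these levels, and 9 of the 10 lay below 0, against 59.6% at these levels and 50.8% of all. SRSF6 moved to 0.01, while TRA2A (-0.17) and SRSF10 (-0.12) stayed lowest. By the authors' FPKM with 0.1 added the median was -0.05, with SRSF1 above 0 and 9 below, against 54.7% below 0 at these levels and 45.1% of all expressed genes, whose median on that scale was 0.03. Runs of GGG, the type of sequence HNRNPF binds, numbered 12.1 per kb in the median member transcript and 14.1 at these levels, from 7.36 in SRSF10 to 21.7 in SRSF5.

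Expressed genes with the heptamer GGAAGAA in their 3' UTR (untranslated region) had a median log2 ratio of -0.08, against 0.01 for those without it. Carriers and other genes were not matched for UTR length or GC content, and the reason for choosing this heptamer is not given here. Whether its choice, base composition, UTR length or binding by SR or TRA2 proteins had a part in the difference was not tested. Of the 10 genes, TRA2B alone carried the heptamer, against 22.1% of genes at these levels and 20% of all expressed genes. The site, in capitals, begins 1342 bases into the UTR of TRA2B on chromosome 3, minus strand.
TRA2B: caggtactttgGGAAGAActttacatataa
TRA2B lay at -0.10, near the median of the 10. TRA2A, the lowest of the group, did not carry the heptamer. Without TRA2B the median of the other 9 was -0.12.

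Of the 4 remaining SR genes, the 3 with counts were also lower. SRSF9, the closest relative of SRSF1, gave 2360 counts (control) and 1945 (HNRNPF siRNA) (log2 ratio -0.27, 95% interval -0.36 to -0.18). The log2 ratio of SRSF1 lay above it by 0.25 (exact 95% interval 0.15 to 0.34). SRSF11 had 4344 and 3871 counts, a log2 ratio of -0.16, or -0.06 with the GC and length trend removed. SRSF8, an expressed gene copy related to SRSF2, had 686 and 474 counts (log2 ratio -0.52, 95% interval -0.69 to -0.35), but the authors' deposited table gave it a log2 fold change of -0.05. Counts of SRSF8 and SRSF9 were not whole. The implied length of SRSF8 also differed by -0.45 on the log2 scale, so the ratio of SRSF8 is uncertain. SRSF8 carries GGAAGAA at 2 sites in its 3' UTR, and whether the heptamer had a part in its ratio was not tested. SRSF12 had no counts in either library.

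The counts of lower genes in the lists that follow compare with the 49.9% of all expressed genes, and 62.5% at the members' levels, that lay below 0. Among the genes that act on SR proteins, those of phosphorylation and nuclear entry were lower by more than the SR genes themselves in several cases. Of 8 SR protein kinases 6 were lower and 2 higher, 1 of them with its counting interval above 0. Their median log2 ratio was -0.13, against -0.11 for the 10 genes. At least 1.2-fold lower were 2 of the 8, against 12.6% of all expressed genes. CLK1, which releases SR proteins from speckles, had 922 and 682 counts (log2 ratio -0.42, 95% interval -0.57 to -0.28). SRPK2, which phosphorylates them in the cytoplasm, had 1538 and 1149 counts (log2 ratio -0.41, 95% interval -0.52 to -0.30), and CLK4 stood at -0.18 (95% interval -0.39 to 0.03), or -0.09 with that trend removed. TNPO3, the importin that carries phosphorylated SR proteins into the nucleus, was 1.37-fold lower, at 2993 and 2174 counts (log2 ratio -0.45, 95% interval -0.53 to -0.37). TNPO3 carries GGAAGAA at 2 sites in its 3' UTR and SRPK2 and CLK4 at 1 each, and CLK1 at none; the part of the heptamer in these ratios was not tested. The importin TNPO1 stood at -0.21. Of the mRNA export factors, NXF1 stood at -0.06 (95% interval -0.15 to 0.03) and its partner NXT1 at 0.37 (0.16 to 0.58). The adaptor ALYREF stood at 0.20 (0.13 to 0.27). ALYREF moved to 0.07 and NXT1 to 0.26 once the GC and length trend was subtracted. Of 5 phosphatase genes 4 were lower, with a median of -0.02 and none past 1.2-fold; PPP2CA stood at -0.16, PPP1CC at -0.13, PPP1CA and PPP1CB at -0.02 each and PPM1G at 0.05. With the trend subtracted PPP1CB turned to 0.09, and by FPKM PPP2CA stood at -0.03.

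The 18 SR-related coactivators had a median log2 ratio of -0.05, 12 lying lower and 6 higher. Those furthest from 0 were SCAF1 at 0.28 (95% interval 0.18 to 0.38), ARGLU1 at -0.24 and BCLAF1 at -0.20. Subtracting the GC and length trend brought these to 0.15, -0.15 and -0.12. Of 6 spliceosome partners with RS-like domains 4 were lower (median -0.06), with U2AF1 taken from the row that owns its symbol. U2AF2 stood at -0.05, PRPF38A at -0.10 and SNRNP27 at -0.07, while SNRNP70, the U1 protein that SR proteins contact, stood at 0.06, and ZRSR2 also at 0.06. SNRNP70 turned to -0.09 with the trend subtracted, and by FPKM ZRSR2 turned to -0.11 and SNRNP27 came to 0.00. U2AF1 named 2 rows, with 240.0 and 188 counts (-0.34) and with 1730 and 2170 counts (0.34), so its direction is uncertain; reads may have been divided between the rows, which was not tested. Summed, the U2AF1 rows held 1970 and 2358 counts (log2 ratio 0.27, 95% interval 0.18 to 0.36), and the list then had 3 genes lower and 3 higher (median 0.01). Of 8 splicing silencers, the hnRNP and PTB proteins that compete with SR proteins, 5 were lower (median -0.10), with HNRNPA2B1 at -0.19, PTBP2 at -0.16 (-0.06 with the trend subtracted) and HNRNPC at -0.13. Of 10 genes of NMD, the pathway that removes poison-exon transcripts, 7 were lower and 3 higher (median -0.08); UPF3B stood at -0.27 and SMG9 at -0.18. The paralogs of HNRNPF stood at 0.01 (HNRNPH1, 0.13 by FPKM), 0.03 (HNRNPH3), -0.11 (GRSF1) and -0.21 (HNRNPH2).

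**Figure D4:**
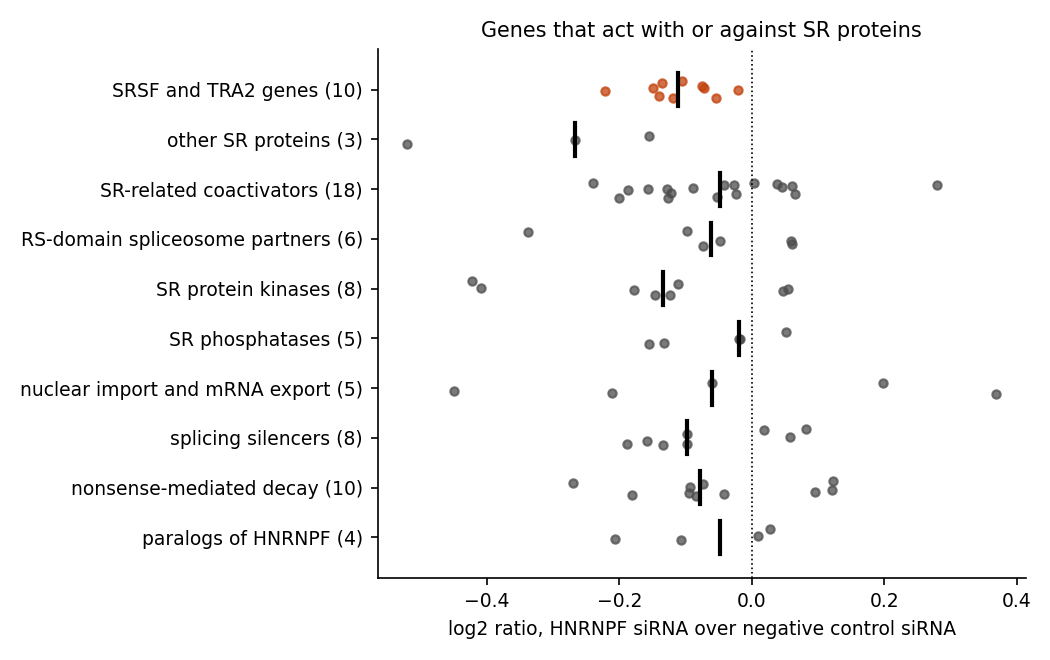
Log2 ratio of every expressed gene, HNRNPF siRNA over negative control siRNA, in the SRSF and TRA2 group and in 9 lists of genes that act with or against it; each point is a gene, vertical bars are medians, numbers of genes are in parentheses and HNRNPF is left out. The 10 SRSF and TRA2 genes lie between -0.22 and -0.02, while the kinases and the import and export genes reach -0.42 and -0.45. The lowest point is SRSF8, of the other SR proteins, at -0.52.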

How the data were processed

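Polyadenylated RNA was made into 2 libraries, 1 per group, per the labels' protocols. Tools listed without roles in the submitters' processing notes are RSEM, HISAT2, StringTie 1.3.1 and fastp 0.18.0, with the build GRCh38. The authors deposited estimated counts, not scaled between libraries, and FPKM per library, per the file headers, with a log2 fold change that equals the log2 ratio of their FPKM (0 set to 0.001) within 3.1e-09, and p-values with false discovery rates in the authors' table. Another 2 columns of per-library values were not used. The second library's columns are named si848 and were taken as the HNRNPF siRNA from the table's name.

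Counts were rounded and scaled by edgeR's TMM method (version 4.0.16, R 4.3.3), and log2 ratios took a prior count of 2. Exact 95% intervals (scipy 1.17.1) cover counting error only, since reads without molecular identifiers are not independent molecules. No test across libraries was possible. TMM ratios were tested on simulated data with 200 changed genes. GC content, length, transcripts and UTRs came from GENCODE release 29, which matched 20171 of 20323 identifiers; the trend was a quadratic surface over 99.7% of expressed genes. Where rows shared a symbol, the one owning it in the Ensembl name table was used. Genes named were the 10, all genes of lists of up to 6 genes, and the 3 of longer lists furthest from 0 at 5 CPM and 50 counts; KRT8, KRT18 and the other markers checked the line, and MFSD11 was named for its overlap. Some genes that this rule or the marker list covers are not reported here. The genes and lists were chosen with earlier results of these data known.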

Additional observations from a re-analysis of the deposited data

How the results depend on the processing

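The median of the 10 genes was below 0 under every alternative run. Only the authors' FPKM with 0.1 added moved it beyond the counting error of a typical member, to -0.051 from -0.11. By the definition of implied length, an FPKM ratio is the ratio on total counts divided by that of implied length. Why the implied lengths differed was not tested. The median of the 10 was -0.12 with DESeq2 size factors, -0.09 with total counts and -0.06 once the GC and length trend was subtracted. After the data were seen, further choices were tried. Summing the SRSF1 rows left all 10 below 0, against 49.9% of all expressed genes and 62.5% at the members' levels. Centring on expressed genes at the members' levels sets the median of those genes to 0. It gave the 10 a median of -0.07, with 9 below 0 and SRSF1 at 0.02. The number of genes below 0 was 9 or 10 under every scaling, SRSF1 being above 0 with total counts and with FPKM, and SRSF6 with the trend removed. With DESeq2 size factors 51.6% of all expressed genes and 65.3% at the members' levels lay below 0. Those shares were 45.3% and 55.7% with total counts, 45.1% and 54.7% with FPKM, and 50.8% and 59.6% with the trend removed. Without the single carrier of GGAAGAA among the 10, 9 of 9 lay below 0, against 46.9% of expressed genes when all carriers were left out. Without the genes whose counts were not whole it was 8 of 8, against 50.4% of expressed genes. HNRNPF stayed at -1.34 with the trend removed. The median of the import and export list was 0.07 without TNPO3, the carrier of GGAAGAA, against -0.06 with it, and that of the 18 coactivators was 0.00 with the same trend subtracted. Under the scalings, FPKM and the trend, 8 of the named genes changed sign, none of them 1.2-fold from 0; for 2 of these, SRSF6 and SNRNP70, the counting interval had excluded 0, and both changed sign with the trend removed (to 0.01 and -0.09). U2AF1 turned from -0.34 to 0.27 when its rows were summed, a choice also added after the data were seen. No paired analysis was possible because each group held 1 library, and for the same reason no library could be left out. Depth limits the intervals to about 0.04 on either side of the ratio for SRSF1 and 0.09 for SRSF4 and TRA2A, but the spread between cultures is unknown.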
